A study of Mus musculus with 12 samples.

Results

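For each probe, the genotype by Dex interaction is the +DEX minus -DEX difference of *Sox7* (-/-) cells minus the same difference of *Sox7* (+/-) cells, and it asks which genes answered the activation of *Gata6* differently once *Sox7* was gone. All 12 of the 12 arrays of the study entered it, 3 for each of 4 groups. The groups were *Sox7* (+/-) ES cells and *Sox7* (-/-) ES cells carrying *Gata6GR* and left without DEX (dexamethasone), and *Sox7* (+/-) and *Sox7* (-/-) XEN-like cells, which are the same lines at day 4 with DEX. *Gata6GR* is mouse *Gata6* joined to the ligand-binding domain of the human glucocorticoid receptor, so that DEX sends it to the nucleus. All cells were kept with LIF, the cytokine that maintains ES cells. The *Sox7* (+/-) cells had lost the coding sequence from 1 allele, so no group was wild type, and the *Sox7* (-/-) cells came from a heterozygous clone through selection for conversion of the second allele. Each genotype was 1 line, so that genotype and line cannot be told apart, and it is not given whether the 3 replicates came from different cultures. In the labels the sources of the 3 *Sox7* (+/-) ES arrays all carry replicate number 1, and p-values therefore measure the spread between these samples, which may be technical.

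Primitive endoderm is the extraembryonic layer that lines the blastocoel and later forms visceral endoderm, an absorptive epithelium around the embryo, and parietal endoderm, migrating cells that lay down a thick basement membrane. *Gata6* is the transcription factor that starts this lineage, and *Gata4*, *Sox7*, *Sox17* and *Foxa2* are transcription factors found in it. *Sox7* and *Sox17* belong to the same subgroup of Sox proteins, which bind short A- and T-rich motifs. An interaction can have either of 2 origins, and the arithmetic is the same for both. It equals the genotype difference in XEN-like cells minus the genotype difference in ES cells, so it can come from the starting level of the ES cells, from the end level of the XEN-like cells, or from both.

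Signals are given as a percent of the 75th percentile of the same array, and differences on the log2 scale, where 1 is a 2-fold change. Between 41.7% and 52.3% of the spots of an array were well above background. Of 55681 probes, 25922 were tested, namely those that stood well above background throughout at least 1 group of 3 arrays. Genes were read by their brightest probe. In bulk RNA, fewer cells of a type and less RNA per cell cannot be told apart. *Sox7* (+/-) XEN-like cells varied most, with a median SD over probes of 0.197 against 0.0873 to 0.108 in the other groups, and their replicate 3 lay farthest from its group. The 3 *Sox7* (-/-) ES arrays and replicate 1 of the *Sox7* (-/-) XEN-like cells lay on 1 slide and the other 8 arrays on the other slide, so that the ES difference lies almost wholly between slides. With the slide as a block, the interaction is the difference of the responses measured within each slide, and these values are given where they change a call. The response of *Sox7* (-/-) cells within their slide sets replicate 1 of the XEN-like cells alone against the 3 ES arrays. Calls kept or lost within slides therefore rest on this 1 +DEX array and are no replicated check of the slide.

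*Sox7* itself was read at 224, 218 and 229% in *Sox7* (+/-) ES cells, 489.9, 495 and 688% in *Sox7* (+/-) XEN-like cells, 1.82, 2.01 and 2.57% in *Sox7* (-/-) ES cells and 2.35, 1.53 and 1.48% in *Sox7* (-/-) XEN-like cells. No *Sox7* (-/-) array was well above background, and all 6 *Sox7* (+/-) arrays were. The level in ES cells was at least 24.6-fold lower in *Sox7* (-/-) than in *Sox7* (+/-) cells, and in XEN-like cells at least 72.6-fold lower. *Pou5f1* (Oct3/4), *Nanog*, *Esrrb* and *Zfp42* were well above background on all ES arrays, and *Nanog* and *Sox2* on no XEN-like array. *Gata4*, *Gata6*, *Sox17* and *Foxa2* were well above background on all 12 arrays, those of the ES cells included. Whether the *Gata6* probe also reads the *Gata6GR* transgene was not tested. Of the visceral endoderm markers, *Afp* and *Apoa1* were not well above background on any array, whereas *Amn* and *Ihh* were on all 12.

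The interaction was called for 2533 probes, 9.77% of those tested, at an adjusted p under 0.05 and over 2-fold. A higher interaction, meaning a more positive response of *Sox7* (-/-) cells, was found for 1714 probes (6.61%), and a lower one for 819 (3.16%). The called probes stand for 2191 genes. Taking every +DEX array against every -DEX array of its genotype, the responses of the genotypes did not overlap for 2439 of them, and for 32.3% of all probes tested. Over all tested probes the median interaction was -0.09, the median ES difference 0.10 and the median XEN-like difference 0.00. Scaling by 7 spike-in controls moved the median interaction to 0.31 and the share of higher calls from 67.7% to 89.8%, and the deposited table without scaling gave 0.24 and 89.6%. Without replicate 3 of the *Sox7* (+/-) XEN-like cells, 1791 probes were higher and 864 lower. Within slides 1567 were higher and 645 lower, and 1931 of the 2533 calls were kept.

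Called probes were sorted by where the genotypes differed, as a description. Over all tested probes the genotypes differed in ES cells in 8.60%, higher in *Sox7* (-/-) cells in 1.94% and lower in 6.66%. In XEN-like cells they differed in 7.48%, higher in 3.85% and lower in 3.63%. In 987 the genotypes differed in ES cells and did not pass the test in XEN-like cells, here called baseline genes, and these are 3.81% of the tested probes. In 687 (2.65%) they differed in XEN-like cells and did not pass in ES cells, here called end-level genes. In 154 (0.594%) they differed in both states with opposite sign (crossed), in 53 (0.204%) in both with the same sign, and in 652 (2.52%) in neither. The baseline genes were mostly low in *Sox7* (-/-) ES cells, with 767 of 987 having a higher interaction, and so were the crossed genes, with 137 of 154. The end-level genes were divided into 448 higher and 239 lower. Of the 767 baseline probes with a higher interaction the highest group mean was that of *Sox7* (+/-) ES cells in 474 and of *Sox7* (-/-) XEN-like cells in 160, and of the 448 end-level probes it was that of *Sox7* (-/-) XEN-like cells in 263. In 636 of the 987 baseline probes the 95% interval of the XEN-like difference lay within 2-fold, and in 461 of the 687 end-level probes the same held for the ES difference. The borders are not sharp, since 76 baseline probes had a XEN-like difference between 0.8 and 1, and 56 end-level probes an ES difference in this range. By adjusted p alone, without the 2-fold limit, the XEN-like difference passed in 291 of the 987 baseline probes. The ES difference did so in 219 of the 687 end-level probes, so that not passing does not mean no difference. Within slides 640 of the baseline probes and 493 of the end-level probes kept both the call and the origin.

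**Figure D1:**
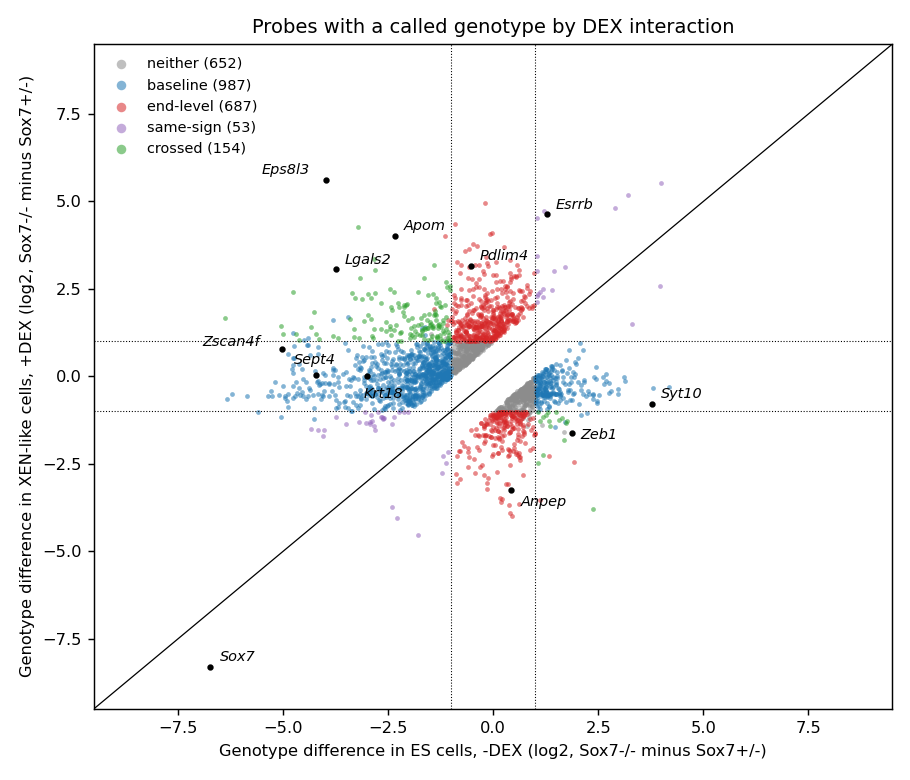
Genotype difference (Sox7-/- minus Sox7+/-, log2) in ES cells without DEX on the horizontal axis and in XEN-like cells with DEX on the vertical axis, for the 2533 probes with a called interaction, coloured by origin. Dotted lines mark a 2-fold difference and the diagonal marks no interaction; the baseline probes spread along the horizontal axis and mostly to its left, and the crossed probes lie mostly at the upper left. The place of Sox7 is set by background signal in Sox7-/- cells.

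The paths of the baseline genes differed. Over all tested probes the Dex response was called in 24.9% in *Sox7* (+/-) cells, with a rise in 11.0% and a fall in 13.9%, and in 28.8% in *Sox7* (-/-) cells, with a rise in 14.6% and a fall in 14.2%. Of the 767 with a higher interaction, 257 fell in *Sox7* (+/-) cells and did not pass the test in *Sox7* (-/-) cells, 198 rose in *Sox7* (-/-) cells and did not pass in *Sox7* (+/-) cells, 150 rose in both and 102 fell in both. Of the 220 with a lower interaction, 134 fell in both genotypes and 63 in *Sox7* (-/-) cells alone by this test. In 151 of the 767, the probe was well above background in *Sox7* (+/-) ES cells and on no array of the other 3 groups, so that nothing is known of the end level beyond a bound. Among the 448 end-level probes with a higher interaction, 137 fell in *Sox7* (+/-) cells and did not pass in *Sox7* (-/-) cells, 128 rose in *Sox7* (-/-) cells and did not pass in *Sox7* (+/-) cells, and 103 fell in both.

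*Sept4*, a septin of the cytoskeleton read by a probe at chr11:87403834-87403893 (mm9), had the largest positive interaction among the baseline genes that the naming rule picked from probes well above background on all 12 arrays. Its signal was 440.2, 504 and 428% in *Sox7* (+/-) ES cells, 147, 116 and 101% in *Sox7* (+/-) XEN-like cells, 23.9, 22.4 and 26.8% in *Sox7* (-/-) ES cells and 137, 105 and 131% in *Sox7* (-/-) XEN-like cells. The ES groups stood far apart, the XEN-like groups overlapped, and DEX lowered the level in *Sox7* (+/-) cells and raised it in *Sox7* (-/-) cells. The interaction was 4.27 (SE 0.21, adjusted p = 7.8e-07), the ES difference -4.23 and the XEN-like difference 0.04, with a 95% interval of -0.29 to 0.38. A second *Sept4* probe gave an interaction of 4.39.

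*Cited1*, a co-regulator that binds CBP and p300 and is found in extraembryonic tissues (probe at chrX:99442776-99442835, mm9), was read at 2013, 2133 and 1969% in *Sox7* (+/-) ES cells, 9939, 11767 and 9015% in *Sox7* (+/-) XEN-like cells, 315, 316 and 279.8% in *Sox7* (-/-) ES cells and 20989, 19225 and 17952% in *Sox7* (-/-) XEN-like cells. It rose in both genotypes, from a lower start in *Sox7* (-/-) cells. The interaction was 3.68 (SE 0.15, adjusted p = 2.4e-07), the ES difference -2.75 and the XEN-like difference 0.93, just inside the 2-fold limit, and without *Sox7* (+/-) XEN-like replicate 2 that difference passed it. *Syt13*, a synaptotagmin of membrane traffic, was read at 238, 207 and 215% in *Sox7* (+/-) ES cells, 351, 312 and 308% in *Sox7* (+/-) XEN-like cells, 20.6, 30.3 and 25.5% in *Sox7* (-/-) ES cells and 498, 485 and 443% in *Sox7* (-/-) XEN-like cells, with an interaction of 3.69 (SE 0.18, adjusted p = 7.9e-07). *Isg15*, a ubiquitin-like protein induced by interferon, was read at 247, 266 and 244% in *Sox7* (+/-) ES cells, 36.7, 37.4 and 32.3% in *Sox7* (+/-) XEN-like cells, 22.9, 28.2 and 28.4% in *Sox7* (-/-) ES cells and 55.1, 46.7 and 52.8% in *Sox7* (-/-) XEN-like cells, with an interaction of 3.80 (SE 0.15, adjusted p = 2.4e-07). In *Syt13* the *Sox7* (-/-) cells made up the gap by rising, whereas in *Isg15* the *Sox7* (+/-) cells fell towards them. The second *Isg15* probe gave 1.54 and did not pass the test.

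The lower baseline genes began higher in *Sox7* (-/-) ES cells. *Itga9*, the integrin alpha 9 chain, was read at 80.6, 71.0 and 63.1% in *Sox7* (+/-) ES cells, 109.8, 110.0 and 185% in *Sox7* (+/-) XEN-like cells, 377, 360.4 and 364% in *Sox7* (-/-) ES cells and 88.0, 78.8 and 84.3% in *Sox7* (-/-) XEN-like cells, and its interaction was -3.01 (SE 0.26, adjusted p = 2.4e-05). Its 3 *Sox7* (-/-) ES values were above all others. *Syt10*, another synaptotagmin, varied widely within groups and had an interaction of -4.55 (SE 0.83, adjusted p = 0.0031), which was -3.97 without *Sox7* (+/-) ES replicate 2 and -5.21 without *Sox7* (+/-) ES replicate 3. Within slides its ES difference did not pass (adjusted p = 0.11), and its origin became neither. *Bdh2*, a hydroxybutyrate dehydrogenase, fell in both genotypes with an interaction of -2.84 (SE 0.52, adjusted p = 0.0031), and without *Sox7* (+/-) XEN-like replicate 3, which was read at 26.3% against 92.9 and 78.0%, its XEN-like difference passed the test as well. Within slides its ES difference did not pass (adjusted p = 0.11). *Nupr1*, a stress-induced chromatin protein, had an interaction of -2.91 (SE 0.76, adjusted p = 0.018). The interaction was -3.73 without the same replicate 3. Its ES difference did not pass without any 1 of the 9 arrays of the other 3 groups, and within slides the interaction was -2.63 and did not pass (adjusted p = 0.097).

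**Figure D2:**
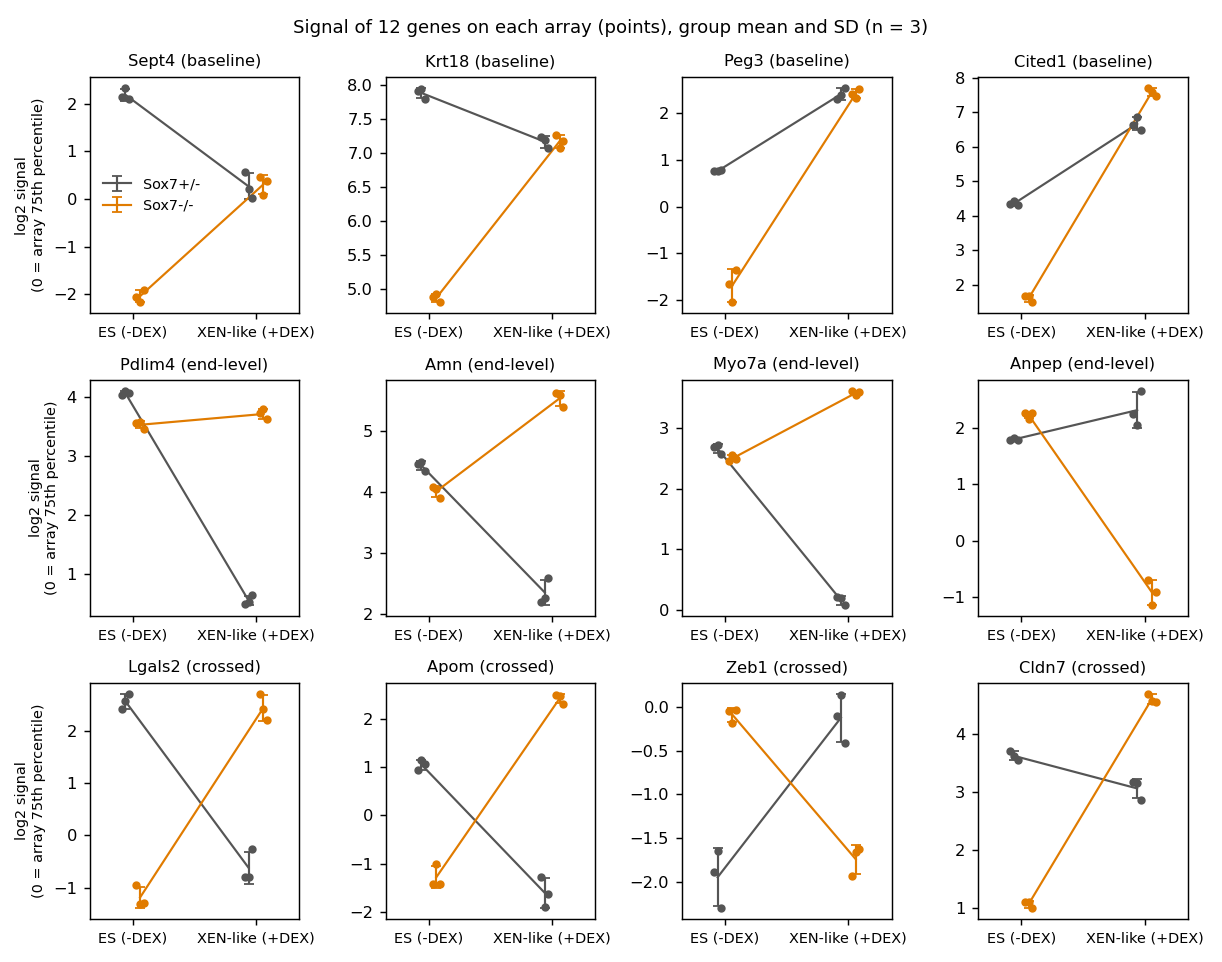
Signal of 12 genes in ES cells (-DEX) and XEN-like cells (+DEX) as log2 relative to the array's 75th percentile; points are single arrays, lines join group means and bars are SD (n = 3), grey for Sox7+/- and orange for Sox7-/-. In the top row (baseline) the lines meet on the right, except in Cited1, where they cross and end 0.93 apart. In the middle row they part on the right (end-level), and in the bottom row they cross.

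*Pdlim4*, an actin-associated PDZ and LIM domain protein (probe at chr11:53868434-53868493, mm9), had the largest positive interaction among the end-level genes that the naming rule picked from probes well above background on all 12 arrays. Its signal was 1636, 1723 and 1679.8% in *Sox7* (+/-) ES cells, 141, 143 and 156% in *Sox7* (+/-) XEN-like cells, 1179, 1189.5 and 1099% in *Sox7* (-/-) ES cells and 1321, 1385 and 1233% in *Sox7* (-/-) XEN-like cells. It fell with DEX in *Sox7* (+/-) cells by 3.52 on the log2 scale and changed by 0.18 in *Sox7* (-/-) cells, which is under 2-fold. The interaction was 3.70 (SE 0.10, adjusted p = 2.7e-08), the ES difference -0.54 and the XEN-like difference 3.16. *Myo7a*, an unconventional myosin of actin-rich protrusions (probe at chr7:105199837-105199896, mm9), was read at 642, 657 and 598% in *Sox7* (+/-) ES cells, 115, 114 and 105% in *Sox7* (+/-) XEN-like cells, 548, 586 and 564% in *Sox7* (-/-) ES cells and 1223, 1163 and 1205% in *Sox7* (-/-) XEN-like cells. It fell in one genotype and rose in the other from nearly equal ES levels, with an interaction of 3.59 (SE 0.09, adjusted p = 2.4e-08) and an ES difference of -0.16 (95% interval -0.31 to -0.01). *Ctsc*, the lysosomal protease cathepsin C, had an interaction of 3.28 (SE 0.20, adjusted p = 2.7e-06) and a XEN-like difference of 3.02.

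In the other direction, *Anpep*, the membrane peptidase aminopeptidase N (probe at chr7:86966716-86966775, mm9), was read at 343, 354 and 344% in *Sox7* (+/-) ES cells, 473, 413 and 632% in *Sox7* (+/-) XEN-like cells, 478, 447 and 482% in *Sox7* (-/-) ES cells and 61.4, 45.2 and 53.2% in *Sox7* (-/-) XEN-like cells. The 3 *Sox7* (-/-) XEN-like values were far below the other 9, and the interaction was -3.67 (SE 0.21, adjusted p = 1.9e-06). *Stk39*, a kinase that acts on ion cotransporters, rose in *Sox7* (+/-) and fell in *Sox7* (-/-) cells, with an interaction of -3.03 (SE 0.13, adjusted p = 2.5e-07). *Ifitm1*, an interferon-induced membrane protein, was read at 5867, 6011 and 6004% in *Sox7* (+/-) ES cells, 409.9, 372 and 291% in *Sox7* (+/-) XEN-like cells, 5492, 5333 and 5356% in *Sox7* (-/-) ES cells and 47.1, 38.1 and 44.3% in *Sox7* (-/-) XEN-like cells. It fell in both genotypes and further in *Sox7* (-/-) cells, with an interaction of -2.90 (SE 0.17, adjusted p = 2.0e-06). *Serpini1*, the serine protease inhibitor neuroserpin, was read in *Sox7* (+/-) XEN-like cells at 206, 225 and 35.2% and had an interaction of -2.83 (SE 0.80, adjusted p = 0.025). This value was -3.70 without replicate 3 of that group, and it did not pass within slides (adjusted p = 0.12) or without any 1 of *Sox7* (+/-) ES replicates 2 and 3, *Sox7* (-/-) ES replicate 2 and *Sox7* (-/-) XEN-like replicates 2 and 3, where adjusted p lay between 0.050 and 0.055.

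The crossed genes held the largest interactions among the genes named here. *Lgals2*, the sugar-binding protein galectin 2, had an interaction of 6.80 (SE 0.25, adjusted p = 1.5e-07), with an ES difference of -3.75 and a XEN-like difference of 3.06. Its signal was 532, 594 and 649% in *Sox7* (+/-) ES cells, 57.3, 57.6 and 83.1% in *Sox7* (+/-) XEN-like cells, 51.6, 40.1 and 40.9% in *Sox7* (-/-) ES cells and 646, 530.3 and 461% in *Sox7* (-/-) XEN-like cells. *Apom*, the apolipoprotein that carries sphingosine 1-phosphate, was read at 192, 222 and 209% in *Sox7* (+/-) ES cells, 41.3, 26.7 and 32.2% in *Sox7* (+/-) XEN-like cells, 37.4, 49.5 and 37.6% in *Sox7* (-/-) ES cells and 560.0, 552 and 493% in *Sox7* (-/-) XEN-like cells, with an interaction of 6.35 (SE 0.23, adjusted p = 1.4e-07). In both genes the order of the genotypes was reversed by DEX with no overlap in either state. *H19*, an imprinted long non-coding RNA, was read at 496, 445 and 519% in *Sox7* (+/-) ES cells, 313, 251 and 416% in *Sox7* (+/-) XEN-like cells, 59.5, 58.7 and 50.7% in *Sox7* (-/-) ES cells and 1919, 1243 and 1388% in *Sox7* (-/-) XEN-like cells, with an interaction of 5.33 (SE 0.28, adjusted p = 1.0e-06), and its 5 other probes gave 4.78 to 5.74. Of the crossed genes with a lower interaction, *Zeb1*, a repressor of epithelial genes, was read at 26.9, 31.8 and 20.2% in *Sox7* (+/-) ES cells, 93.5, 110.5 and 75.4% in *Sox7* (+/-) XEN-like cells, 97.0, 88.4 and 97.5% in *Sox7* (-/-) ES cells and 26.1, 31.5 and 32.3% in *Sox7* (-/-) XEN-like cells, with an interaction of -3.49 (SE 0.25, adjusted p = 7.6e-06). *Tubb3*, a beta-tubulin typical of neurons, had an interaction of -3.54 (SE 0.25, adjusted p = 6.9e-06), and *Shisa2*, which dampens Wnt and Fgf receptors, of -3.09 (SE 0.21, adjusted p = 5.1e-06).

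Where the genotypes differed in both states with the same sign, the interaction was a matter of degree. *Esrrb*, a nuclear receptor of the ES cell network, was read at 7563, 7979 and 7629.5% in *Sox7* (+/-) ES cells, 18.6, 15.4 and 16.8% in *Sox7* (+/-) XEN-like cells, 17915, 20241 and 18101% in *Sox7* (-/-) ES cells and 429, 435 and 391% in *Sox7* (-/-) XEN-like cells. It fell in both genotypes, and the brightest probe gave an interaction of 3.35 (SE 0.12, adjusted p = 1.4e-07), whereas a second probe gave -0.67 and did not pass, so that the probes disagree. *Wnt4*, a Wnt ligand, had an interaction of 2.83 (SE 0.34, adjusted p = 2.3e-04) and was lower in *Sox7* (-/-) cells in both states, with differences of -4.33 and -1.50. *Lin28b*, which blocks let-7 processing, had an interaction of -1.53 (SE 0.22, adjusted p = 7.5e-04). *Cd200*, a membrane glycoprotein, had an interaction of -1.10 (SE 0.32, adjusted p = 0.030), which lost the call without any 1 of *Sox7* (+/-) ES replicate 1, *Sox7* (+/-) XEN-like replicate 3, *Sox7* (-/-) ES replicates 1 and 2 and *Sox7* (-/-) XEN-like replicates 1 and 2. Of the genes that passed in neither state, *Klhl13*, an adaptor of a ubiquitin ligase, had an interaction of 1.79 (SE 0.23, adjusted p = 3.6e-04), *Dhcr7*, the enzyme of the last step of cholesterol synthesis, of 1.78 (SE 0.14, adjusted p = 1.7e-05), and *Zfp57*, a zinc finger protein that maintains imprints, of -1.91 (SE 0.15, adjusted p = 1.5e-05). Within slides the ES differences of *Klhl13* and *Zfp57* passed, at -1.06 (adjusted p = 0.048) and 1.34 (adjusted p = 3.5e-04), which made both baseline genes. *Chac1*, which breaks down glutathione, had an interaction of -2.24 (SE 0.73, adjusted p = 0.046). It lost the call when any 1 array other than *Sox7* (+/-) XEN-like replicate 3 was left out, with adjusted p from 0.071 to 0.095, and within slides (adjusted p = 0.12), and was -3.03 without that replicate.

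The visceral endoderm list showed the interaction in most of its members. Of 20 genes on the array 18 were tested, and the interaction was higher in 15 of them, beside 6.61% of all tested probes that were higher. The median interaction of the list was 2.05, the median ES difference -1.02 and the median XEN-like difference 1.37. Its called genes were crossed in 6, end-level in 4, baseline in 3 and neither in 2. The interaction was higher in 14 genes within slides, in 14 without *Sox7* (+/-) XEN-like replicate 3 and in 11 of those well above background on all arrays. *Apoe*, *Rbp4* and *Trf*, which encode an apolipoprotein, the retinol carrier and transferrin, were not called, at 0.28, 0.42 and -0.13.

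*Amn* and *Cubn* encode amnionless and cubilin, which together form the endocytic receptor of visceral endoderm for protein and vitamin uptake. *Amn* was read at 2215, 2263 and 2039% in *Sox7* (+/-) ES cells, 461, 481 and 604% in *Sox7* (+/-) XEN-like cells, 1699, 1656 and 1506% in *Sox7* (-/-) ES cells and 4937, 4867 and 4221% in *Sox7* (-/-) XEN-like cells. *Cubn* was read at 4432, 4129 and 4509% in *Sox7* (+/-) ES cells, 872, 1010.3 and 2006% in *Sox7* (+/-) XEN-like cells, 1908, 1713 and 2531% in *Sox7* (-/-) ES cells and 7522, 7057 and 6864% in *Sox7* (-/-) XEN-like cells. Both fell with DEX in *Sox7* (+/-) cells and rose in *Sox7* (-/-) cells. By group mean the end levels lay on either side of the ES levels. For *Cubn*, however, *Sox7* (+/-) XEN-like replicate 3, at 2006%, lay among the *Sox7* (-/-) ES values. The interaction was 3.61 (SE 0.16, adjusted p = 3.1e-07) for *Amn* and 3.67 (SE 0.37, adjusted p = 8.1e-05) for *Cubn*, and the XEN-like difference 3.19 and 2.56. The ES difference of *Cubn* was -1.11, and without *Sox7* (-/-) ES replicate 2 it did not pass, as it did not within slides (adjusted p = 0.15), so that *Cubn* then was an end-level gene. *Ihh*, the hedgehog ligand of visceral endoderm, rose in both genotypes, at 501, 531 and 523% in *Sox7* (+/-) ES cells, 3829.9, 3643 and 2871% in *Sox7* (+/-) XEN-like cells, 118, 115 and 104% in *Sox7* (-/-) ES cells and 8079, 8391 and 7983% in *Sox7* (-/-) XEN-like cells, with an interaction of 3.46 (SE 0.15, adjusted p = 3.0e-07).

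*Ttr*, which carries thyroid hormone, was read at 38.2, 31.1 and 32.4% in *Sox7* (+/-) ES cells, 229, 259 and 128% in *Sox7* (+/-) XEN-like cells, 6.98, 5.44 and 2.36% in *Sox7* (-/-) ES cells and 646, 627 and 557% in *Sox7* (-/-) XEN-like cells, and was on no *Sox7* (-/-) ES array well above background. Its interaction was 4.55 (SE 0.52, adjusted p = 1.8e-04), and at least 11.5-fold when background is set as a bound. Among the other apolipoproteins the interaction was 3.63 (SE 0.20, adjusted p = 1.4e-06) for *Apoc2*, 3.43 (SE 0.52, adjusted p = 0.0010) for *Apoa4* and 1.06 (SE 0.25, adjusted p = 0.012) for *Apob*. *Soat2*, which esterifies cholesterol, gave 2.31, *Dpp4*, a brush border peptidase, 1.70, and *Lrp2*, the large endocytic receptor megalin, 1.80. *Spink3*, a secreted inhibitor of proteases, gave 2.78 (SE 0.31, adjusted p = 1.6e-04) and *Cyp26a1*, which breaks down retinoic acid, 1.30 (SE 0.29, adjusted p = 0.0092). *Hnf4a*, a transcription factor of visceral endoderm, was an end-level gene with an interaction of 2.01 (SE 0.14, adjusted p = 5.3e-06). It was read at 476, 471 and 455% in *Sox7* (+/-) ES cells, 887, 919 and 757% in *Sox7* (+/-) XEN-like cells, 343, 307 and 286% in *Sox7* (-/-) ES cells and 2333, 2439 and 2111% in *Sox7* (-/-) XEN-like cells. *Dab2*, an endocytic adaptor of primitive endoderm, gave 1.65 (SE 0.11, adjusted p = 4.8e-06).

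**Figure D3:**
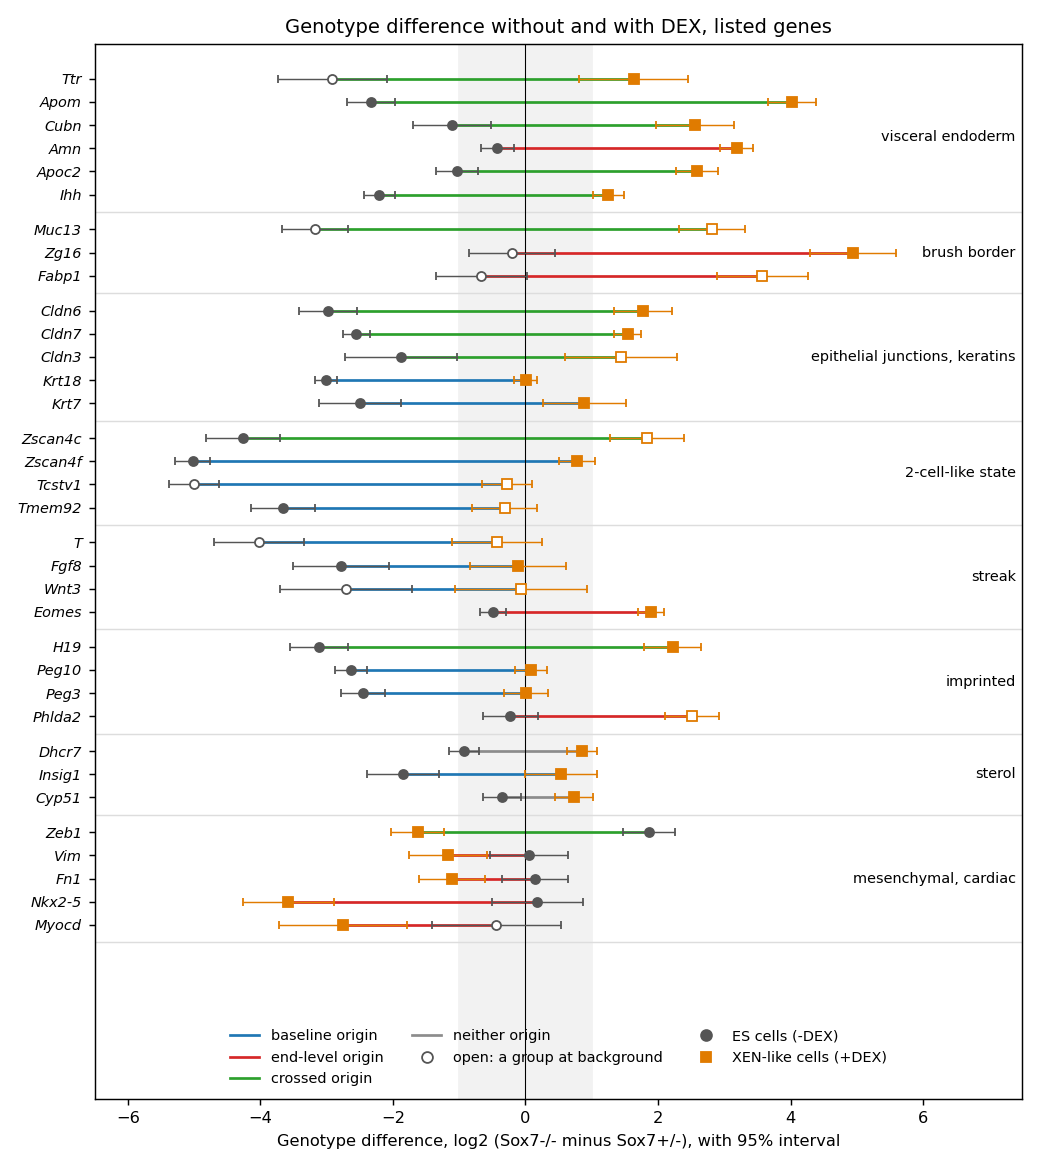
Genotype difference (Sox7-/- minus Sox7+/-, log2) of listed genes in ES cells (grey circles) and XEN-like cells (orange squares), with 95% intervals; the line between them is the interaction, coloured by origin, and the shaded band is 2-fold. Open symbols mark a difference in which a group was well above background on no array. In the visceral endoderm and brush border genes shown the squares lie at or above 1.25, and in Krt18 and Peg3 they lie at 0.01. The genes shown are a selection. Of the 18 tested visceral endoderm genes 10 were called higher and 0 lower in Sox7-/- XEN-like cells. Of the 13 tested brush border genes 7 were called higher there and 2 lower, Anpep (-3.23) and Enpep (-1.21).

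The same was seen in the brush border list, of absorptive epithelium, with the interaction higher in 7 and lower in 1 of 13 tested genes beside 6.61% and 3.16% of all tested probes, and a median of 2.46 that ranged from 0.47 to 2.86 over the settings. *Cubn* is in both lists. *Muc13*, a membrane mucin, was read at 74.9, 94.1 and 75.7% in *Sox7* (+/-) ES cells, 8.67, 5.51 and 6.60% in *Sox7* (+/-) XEN-like cells, 9.96, 11.0 and 6.67% in *Sox7* (-/-) ES cells and 55.2, 51.4 and 39.1% in *Sox7* (-/-) XEN-like cells, and its responses differed by at least 35.2-fold. *Zg16*, a secreted lectin, was read at 4.22, 2.61 and 2.01% in *Sox7* (+/-) ES cells, 51.2, 37.4 and 23.8% in *Sox7* (+/-) XEN-like cells, 2.28, 2.55 and 2.51% in *Sox7* (-/-) ES cells and 1153, 1114 and 1028% in *Sox7* (-/-) XEN-like cells, and it was on no ES array well above background, so that the size of its interaction, fitted at 5.14 (SE 0.41, adjusted p = 1.6e-05), is not known, while the XEN-like difference was 4.94 (SE 0.29, adjusted p = 2.2e-06). *Fabp1*, a fatty acid-binding protein, exceeded background clearly in 1 group alone, the *Sox7* (-/-) XEN-like cells, at 45.7, 38.3 and 38.2%, at least 3.71-fold higher than in *Sox7* (+/-) XEN-like cells. *Vil1*, the actin bundler villin, gave 2.46 (SE 0.43, adjusted p = 0.0025), *Fabp2*, the intestinal fatty acid-binding protein, gave 3.64 (SE 0.67, adjusted p = 0.0031), and *Anpep*, described above, was the gene in the other direction. Only 2 higher and 1 lower remained among the list's genes well above background on all 12 arrays.

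Among the crossed genes named from probes well above background on all 12 arrays, *Lgals2* and *Apom* had the largest interactions. Their promoters and those of the receptor pair *Amn* and *Cubn* are shown, since these members of 2 lists moved together. They are the 250 bases before the start of the gene, 5′ to 3′ on the gene's strand, from RefSeq (GRCm38.p6). Capitals mark matches, on either strand, to 3 motifs. For Gata proteins the letters searched were AGATAA. For the group of Sox proteins the shorter string ACAAT was used instead. Hnf4 receptors were represented by CAAAGTC, which is only part of the longer motif that they bind. *Lgals2* lies at chr15:78855530-78855779 on the minus strand, *Apom* at chr17:35131802-35132051 on the minus strand, *Amn* at chr12:111270846-111271095 on the plus strand and *Cubn* at chr2:13491877-13492126 on the minus strand.
Lgals2: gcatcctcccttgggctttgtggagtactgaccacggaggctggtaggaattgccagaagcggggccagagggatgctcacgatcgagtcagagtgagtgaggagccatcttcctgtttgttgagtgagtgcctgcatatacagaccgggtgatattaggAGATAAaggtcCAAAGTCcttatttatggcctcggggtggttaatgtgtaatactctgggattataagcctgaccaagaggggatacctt
Apom: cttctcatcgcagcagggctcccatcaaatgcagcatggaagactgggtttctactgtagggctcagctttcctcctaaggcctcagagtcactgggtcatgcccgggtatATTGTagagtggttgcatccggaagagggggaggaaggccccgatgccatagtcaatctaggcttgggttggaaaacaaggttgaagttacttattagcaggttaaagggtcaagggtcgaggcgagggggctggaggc
Amn: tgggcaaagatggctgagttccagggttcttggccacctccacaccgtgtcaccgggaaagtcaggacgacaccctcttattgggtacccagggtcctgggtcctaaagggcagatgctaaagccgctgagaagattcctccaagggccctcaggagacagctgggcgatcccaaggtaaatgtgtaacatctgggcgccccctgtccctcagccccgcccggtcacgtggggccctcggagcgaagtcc
Cubn: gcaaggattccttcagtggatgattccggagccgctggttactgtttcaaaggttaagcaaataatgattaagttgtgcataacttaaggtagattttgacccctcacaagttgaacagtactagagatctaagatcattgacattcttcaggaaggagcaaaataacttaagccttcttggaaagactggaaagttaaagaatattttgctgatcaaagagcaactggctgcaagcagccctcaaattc
The *Lgals2* window held 1 Gata and 1 Hnf4 match, that of *Apom* 1 Sox match, and those of *Amn* and *Cubn* none of the 3, which says only that these letters are not in these windows. The motifs do not overlap each other here. Of 18979 tested genes 10336 had a promoter in the table, and 5.98% of these held the Gata motif, 18.4% the Sox motif and 3.28% the Hnf4 motif. Over all 27025 promoters, tested or not, the shares were 10.3%, 28.3% and 3.80%. The shares were 12.3%, 21.9% and 4.11% in the 73 crossed genes with a higher interaction, 8.75%, 20.7% and 5.25% in the 343 baseline genes, and 9.09%, 14.5% and 3.72% in the 242 end-level genes of the same direction. With a lower interaction they were 0%, 20% and 0% in 10 crossed genes, 6.19%, 24.8% and 5.31% in 113 baseline genes, and 5.38%, 17.2% and 3.23% in 93 end-level genes. The letters were chosen after results of these arrays were known, and no test was made.

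The called genes of epithelial cells and of mesenchymal cells went opposite ways. Of 20 listed genes of cell adhesion and of the epithelial to mesenchymal transition, all tested, 10 had a higher and 6 a lower interaction. Here and for the lists below, the shares over all tested probes were 6.61% higher and 3.16% lower, 9.77% together. The 10 were all epithelial: the claudins *Cldn3*, *Cldn6* and *Cldn7*, the junction proteins *Cdh1* (E-cadherin) and *Ocln* (occludin), the keratins *Krt8*, *Krt18* and *Krt19*, and *Esrp1* and *Grhl2*, regulators of epithelial splicing and transcription. The 6 were *Cdh2* (N-cadherin), *Fn1* (fibronectin), *Vim* (vimentin) and the repressors *Snai2*, *Zeb1* and *Zeb2*. Not called were the claudin *Cldn4* at 0.87 and, of the mesenchymal genes, *Cdh11* at -0.15, *Snai1* at -0.52 and *Twist1* at 0.39. Within slides 8 were higher and 3 lower, and over all settings 7 to 11 were higher and 2 to 6 lower. *Cldn6* was read at 319, 329.6 and 352% in *Sox7* (+/-) ES cells, 354, 368 and 199% in *Sox7* (+/-) XEN-like cells, 44.3, 42.5 and 39.6% in *Sox7* (-/-) ES cells and 1066, 1035 and 930.3% in *Sox7* (-/-) XEN-like cells, with an interaction of 4.75 (SE 0.28, adjusted p = 1.9e-06). *Cldn7* was read at 1299, 1221 and 1170.4% in *Sox7* (+/-) ES cells, 898, 884 and 727% in *Sox7* (+/-) XEN-like cells, 215, 213 and 199% in *Sox7* (-/-) ES cells and 2582, 2373 and 2328% in *Sox7* (-/-) XEN-like cells, with 4.10 (SE 0.13, adjusted p = 8.0e-08). Both claudins were lower in *Sox7* (-/-) ES cells and higher in *Sox7* (-/-) XEN-like cells.

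The keratins differed from the claudins in where they ended. *Krt18* was read at 23895, 24571 and 22215% in *Sox7* (+/-) ES cells, 15013, 14653 and 13392% in *Sox7* (+/-) XEN-like cells, 2945, 3033 and 2799% in *Sox7* (-/-) ES cells and 15342, 13442 and 14468% in *Sox7* (-/-) XEN-like cells. The XEN-like difference was 0.01 with a 95% interval of -0.17 to 0.18, and the ES difference -3.01, so that the interaction of 3.02 (SE 0.11, adjusted p = 1.4e-07) lay in the ES cells. *Krt8*, its partner, gave an interaction of 2.32 (SE 0.11, adjusted p = 4.1e-07) and a XEN-like difference of 0.09. *Cdh1* and *Ocln* were end-level genes, with XEN-like differences of 1.82 and 2.15. *Cdh2* had an interaction of -2.63 (SE 0.34, adjusted p = 3.8e-04) and a XEN-like difference of -2.26. *Vim* and *Fn1* had interactions of -1.22 (SE 0.37, adjusted p = 0.035) and -1.26 (SE 0.32, adjusted p = 0.015) and neither passed within slides (adjusted p = 0.084 and 0.076). *Vim* lost the call when any 1 array other than *Sox7* (+/-) XEN-like replicate 3 was left out, and that replicate was read at 1405% against 3202 and 3182%.

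**Figure D4:**
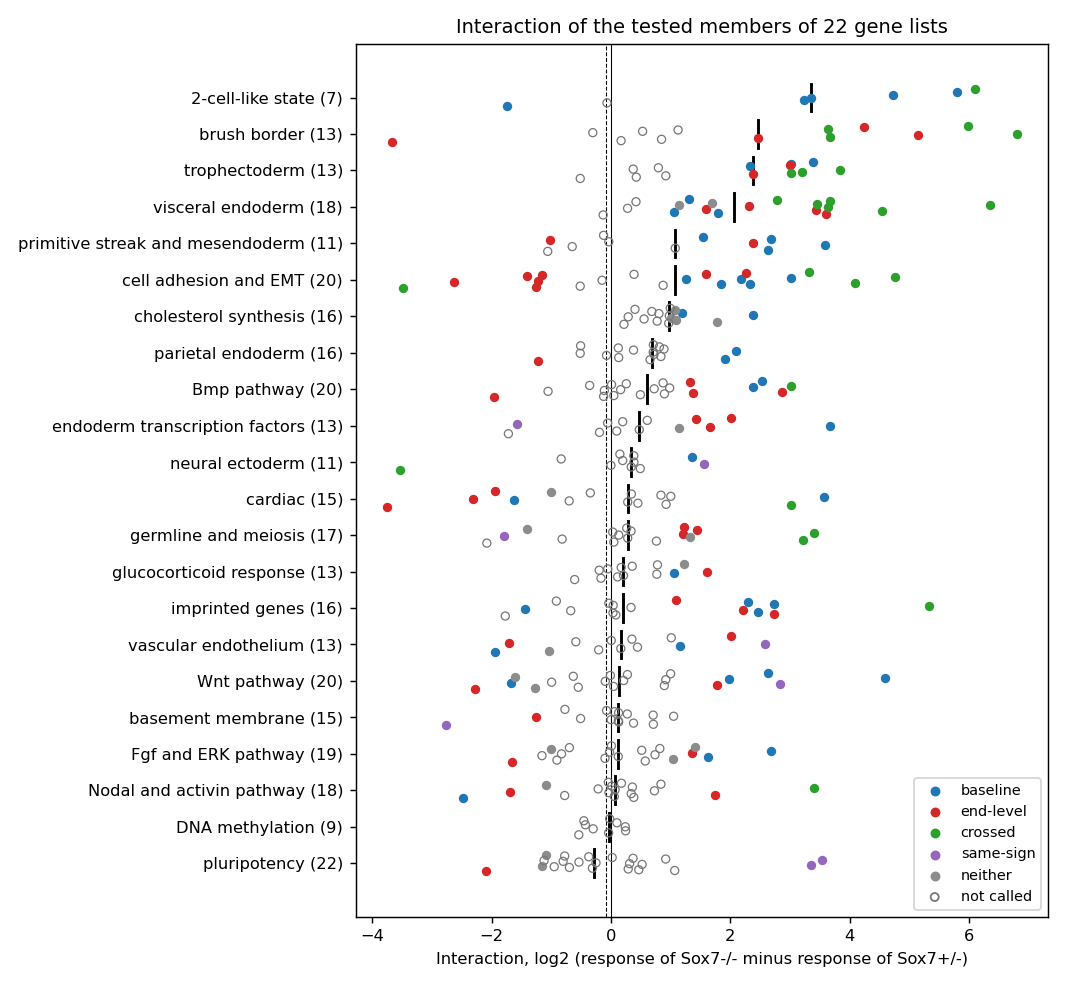
Interaction (log2, response of Sox7-/- minus response of Sox7+/-) of the tested members of 22 gene lists, 1 point per gene, filled and coloured by origin where called and open where not; the number after each name is the number tested, bars are list medians and the dashed line is the median of all tested probes (-0.09). The 2-cell-like, brush border, trophectoderm and visceral endoderm lists have medians of 3.35, 2.46, 2.38 and 2.05.

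A set of genes typical of the 2-cell-like state, a rare and passing condition of ES cells, differed in the ES cells. Of 7 tested genes the interaction was higher in 5 and lower in 1, and 5 of the 6 were baseline genes. *Zscan4f* was read at 2961, 3084 and 3162% in *Sox7* (+/-) ES cells, 11.1, 10.9 and 11.6% in *Sox7* (+/-) XEN-like cells, 87.7, 118 and 81.4% in *Sox7* (-/-) ES cells and 18.9, 20.02 and 18.6% in *Sox7* (-/-) XEN-like cells. The high values of *Sox7* (+/-) ES cells fell with DEX to levels that were well above background on 1 of 3 arrays, and the interaction was 5.80 (SE 0.17, adjusted p = 4.8e-08). *Zscan4c*, with 6.10 (SE 0.35, adjusted p = 1.8e-06), is a near-identical copy whose probe may read the same transcripts, and its responses differed by at least 20.8-fold. *Tcstv1* was well above background in *Sox7* (+/-) ES cells alone, at 64.3, 65.5 and 81.5%, at least 7.68-fold higher than in *Sox7* (-/-) ES cells. *Zfp352* had the opposite sign, at -1.75 (SE 0.27, adjusted p = 0.0013). With the filter on all 12 arrays none of the 5 higher genes was tested, and the list median was -0.91.

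Of 11 tested genes of the primitive streak, the site of mesoderm formation, 5 were higher and 1 lower. The called genes were baseline in 4 and end-level in 2. T (brachyury), which marks the streak, was well above background in *Sox7* (+/-) ES cells alone, at 60.5, 60.3 and 76.96%, at least 7.19-fold higher than in *Sox7* (-/-) ES cells. For T, and for *Wnt3* below, both XEN-like groups were at background, so that their end level was not measured. *Sp5*, a target of Wnt signals that stands in the Wnt list, was in the same cells at 166, 195 and 199%, at least 20.4-fold higher. *Fgf8* was read at 104, 95.9 and 105% in *Sox7* (+/-) ES cells, 12.8, 10.9 and 14.9% in *Sox7* (+/-) XEN-like cells, 15.2, 16.0 and 13.3% in *Sox7* (-/-) ES cells and 22.8, 7.55 and 9.71% in *Sox7* (-/-) XEN-like cells, with an interaction of 2.68 (SE 0.46, adjusted p = 0.0022). *Wnt3*, the ligand that starts the streak, was at least 2.02-fold higher in *Sox7* (+/-) ES cells, at 16.1, 21.5 and 17.8%. *Eomes*, a T-box factor of streak and trophectoderm, was an end-level gene instead, at 179, 169.8 and 176% in *Sox7* (+/-) ES cells, 49.1, 45.6 and 51.4% in *Sox7* (+/-) XEN-like cells, 123, 123 and 127% in *Sox7* (-/-) ES cells and 159, 201 and 183% in *Sox7* (-/-) XEN-like cells, with an interaction of 2.38 (SE 0.12, adjusted p = 1.0e-06). *Mixl1* was not well above background on any array.

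Genes listed for trophectoderm, the outer layer of the blastocyst, had a higher interaction in 8 of 13 tested. Among those well above background on all 12 arrays 4 were higher. *Krt7*, *Krt8* and *Krt18* of this list are epithelial keratins, *Eomes* is in the streak list and *Hand1* in the cardiac list. *Cdx2*, a defining factor of trophectoderm, was read at 31.7, 37.8 and 42.7% in *Sox7* (+/-) ES cells, 5.49, 2.37 and 2.57% in *Sox7* (+/-) XEN-like cells, 13.6, 7.94 and 5.80% in *Sox7* (-/-) ES cells and 11.5, 8.43 and 12.3% in *Sox7* (-/-) XEN-like cells, and *Gata3* at 60.1, 67.7 and 79.5% in *Sox7* (+/-) ES cells, 187, 146 and 106% in *Sox7* (+/-) XEN-like cells, 17.1, 21.1 and 14.8% in *Sox7* (-/-) ES cells and 301, 355 and 342% in *Sox7* (-/-) XEN-like cells, with interactions of 3.84 (SE 0.51, adjusted p = 4.8e-04) and 3.20 (SE 0.29, adjusted p = 3.6e-05). *Cdx2* was well above background on no *Sox7* (+/-) XEN-like array, so that its responses differed by at least 4.21-fold, and *Elf5*, another defining factor, on no array at all. *Krt7* gave 3.38 (SE 0.40, adjusted p = 2.1e-04), and *Ascl2*, a factor of trophoblast progenitors, 2.99 (SE 0.25, adjusted p = 1.9e-05). The part of trophectoderm-like cells in these values was not tested.

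Signalling genes were called in each of 4 pathways. Their counts stand beside 9.77% of all tested probes called, 6.61% higher and 3.16% lower. In the Bmp list 7 of 20 tested genes were called, 6 higher and 1 lower. The ligand *Bmp2* rose in both genotypes, at 188, 171 and 187% in *Sox7* (+/-) ES cells, 1055, 993 and 961% in *Sox7* (+/-) XEN-like cells, 61.2, 59.4 and 71.2% in *Sox7* (-/-) ES cells and 1878, 1785 and 1804% in *Sox7* (-/-) XEN-like cells, with an interaction of 2.38 (SE 0.12, adjusted p = 7.3e-07) from the ES baseline. The targets *Id2* and *Smad6*, an inhibitor of differentiation and a feedback inhibitor, gave 3.02 (SE 0.32, adjusted p = 1.1e-04) and 2.87 (SE 0.37, adjusted p = 3.8e-04), and *Id1* gave 1.37, whereas *Id4* gave -1.95. *Bmp8b*, a ligand of the early germline, was read at 146, 146 and 158% in *Sox7* (+/-) ES cells, 9.78, 13.1 and 19.6% in *Sox7* (+/-) XEN-like cells, 28.6, 22.2 and 26.3% in *Sox7* (-/-) ES cells and 18.4, 9.36 and 13.9% in *Sox7* (-/-) XEN-like cells, with 2.53 (SE 0.38, adjusted p = 0.0010) from the baseline. The receptors *Bmpr1a* and *Bmpr2*, at 0.01 and 0.87, were not called. In the *Nodal* and activin list 5 of 18 were called, 2 higher and 3 lower. The co-receptor *Cfc1* (Cryptic) was read at 209, 191 and 172% in *Sox7* (+/-) ES cells, 1639, 1621 and 1585% in *Sox7* (+/-) XEN-like cells, 74.9, 84.8 and 74.1% in *Sox7* (-/-) ES cells and 6879.9, 7312 and 6857% in *Sox7* (-/-) XEN-like cells, with 3.41 (SE 0.12, adjusted p = 1.2e-07), and *Inhbb*, an activin subunit, gave -2.49 (SE 0.17, adjusted p = 6.3e-06), with both XEN-like groups at background, so that its size is not known. The same holds for *Lefty1*, a *Nodal* antagonist, and *Inhba*, another activin subunit, at 1.74 and -1.70, with *Sox7* (+/-) XEN-like cells at background in both and *Sox7* (-/-) XEN-like cells too in *Inhba*, whose interaction did not pass within slides (adjusted p = 0.071). The Wnt list had 9 of 20 called, 5 higher and 4 lower, and the Fgf and ERK list 7 of 19, 5 higher and 2 lower. *Lef1*, a nuclear partner of beta-catenin, gave -2.28 (SE 0.53, adjusted p = 0.011) and did not pass within slides (adjusted p = 0.067), and *Dusp4*, an ERK phosphatase, gave -1.66 (SE 0.15, adjusted p = 4.4e-05). *Egr1*, an immediate target of ERK, gave 1.42 (SE 0.25, adjusted p = 0.0025). *Fgf5*, a ligand of the epiblast, was read in ES cells at 241, 196 and 219.6% for *Sox7* (+/-) and 48.1, 34.3 and 43.5% for *Sox7* (-/-), with an ES difference of -2.39 (SE 0.25, adjusted p = 5.7e-05), and on no XEN-like array was it well above background. *Sfrp1*, a secreted Wnt antagonist, gave -1.68 and its relative *Sfrp5* 1.77.

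Imprinted genes were called in 8 of 16 tested, 7 higher and 1 lower. *Peg3*, a paternally expressed zinc finger protein, was read at 169, 169 and 171% in *Sox7* (+/-) ES cells, 492, 524 and 585% in *Sox7* (+/-) XEN-like cells, 31.8, 24.1 and 39.1% in *Sox7* (-/-) ES cells and 531, 505 and 575% in *Sox7* (-/-) XEN-like cells, with an interaction of 2.46 (SE 0.21, adjusted p = 2.6e-05) and a XEN-like difference of 0.01 (95% interval -0.32 to 0.34). *Peg10*, a retrotransposon-derived gene of the placenta, gave 2.72 (SE 0.15, adjusted p = 1.4e-06) with a XEN-like difference of 0.08, and *Igf2*, a growth factor next to *H19*, gave 2.29 (SE 0.13, adjusted p = 1.3e-06). These 3 began lower in *Sox7* (-/-) ES cells and did not pass the test in XEN-like cells. There *Igf2* missed only the 2-fold limit, with a difference of 0.78 (adjusted p = 1.5e-04). *Phlda2* and *Cdkn1c*, maternally expressed growth restrainers, were end-level genes at 2.74 and 2.21, and for *Phlda2* the bound was 1.92-fold, since *Sox7* (+/-) XEN-like cells were at background. *Slc38a4*, an amino acid transporter, gave -1.45 (SE 0.47, adjusted p = 0.043), in the other direction, and lost the call within slides, where 7 imprinted genes were higher. *Igf2r*, *Snrpn*, *Plagl1* and *Impact* lay between -0.04 and 0.08. Of 9 genes of DNA methylation 0 were called by limma, with 5 at an unadjusted p under 0.05, and their interactions, among them *Dnmt3a* at 0.10, *Dnmt3b* at -0.54 and *Dnmt3l* at 0.24, lay within 2-fold.

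All 16 genes of cholesterol synthesis and uptake had an interaction above 0, and 6 were called. The list median was 0.97, with an ES median of -0.45, and its range over all settings was 0.87 to 1.37. *Dhcr7* was read at 84.7, 88.6 and 82.3% in *Sox7* (+/-) ES cells, 90.1, 80.8 and 79.0% in *Sox7* (+/-) XEN-like cells, 49.3, 47.8 and 37.8% in *Sox7* (-/-) ES cells and 144, 154 and 153% in *Sox7* (-/-) XEN-like cells. It passed in neither state and yet had an interaction of 1.78. *Insig1*, which holds back the sterol sensor, gave 2.38 (SE 0.34, adjusted p = 7.9e-04) with a XEN-like difference of 0.53. *Hmgcs1*, *Idi1* and *Cyp51*, enzymes along the pathway, gave 1.08, 1.001 and 1.09. *Cyp51* fell under 2-fold without *Sox7* (+/-) XEN-like replicate 2.

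In contrast, the central transcription factors of the lineage showed small interactions. *Gata4* was read at 1059.6, 1133 and 1024% in *Sox7* (+/-) ES cells, 3234, 3485 and 2685% in *Sox7* (+/-) XEN-like cells, 1031, 1081 and 970.3% in *Sox7* (-/-) ES cells and 3496, 3439.6 and 3324% in *Sox7* (-/-) XEN-like cells. It rose in both genotypes, and the interaction was 0.20 (SE 0.14, adjusted p = 0.32) with a 95% interval of -0.11 to 0.50. *Sox17* gave -0.06 (SE 0.16, adjusted p = 0.82) with an interval of -0.40 to 0.29, *Gata6* 0.09 (SE 0.27, adjusted p = 0.82) with an interval of -0.50 to 0.69, and *Foxa2* 0.47 (SE 0.17, adjusted p = 0.068) with an interval of 0.09 to 0.86. For these 4 genes an interaction of over 2-fold lay outside the interval. The sign of *Gata6* turned to -0.18 without *Sox7* (+/-) XEN-like replicate 3, and that of *Sox17* with the setting. *Pdgfra*, the receptor by which primitive endoderm is commonly marked, gave -0.19 (SE 0.08, adjusted p = 0.11) with an interval of -0.38 to -0.01. In the endoderm transcription factor list 6 of 13 were called, 5 higher and 1, *Sox7* itself, lower, and in *Sox7* both *Sox7* (-/-) groups were at background, so that the size of its interaction is not known.

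Parietal endoderm genes were called in 3 of 16 (18.8%), beside 9.77% of all tested probes. The 3 were 2 higher and 1 lower, and within slides the lower one was not called. The median interaction of the list was 0.68, against -0.09 over all tested probes, and 12 of the 16 genes lay above 0. Its median ES difference was -0.72 and its median XEN-like difference -0.28. Over the settings 1 to 9 of its genes were higher. *Lama1* (laminin alpha 1), *Sparc* and *Plat* (a plasminogen activator) gave 0.12, -0.08 and 0.89, and *Plat* missed only the 2-fold limit (adjusted p = 0.0083). *Thbd* (thrombomodulin) was read at 65.1, 49.9 and 62.9% in *Sox7* (+/-) ES cells, 684, 609 and 710.3% in *Sox7* (+/-) XEN-like cells, 10.3, 11.7 and 12.4% in *Sox7* (-/-) ES cells and 531, 439.9 and 497% in *Sox7* (-/-) XEN-like cells and rose in both genotypes, with an interaction of 1.92 (SE 0.17, adjusted p = 3.8e-05) from a lower start in *Sox7* (-/-) ES cells. *Pth1r*, the receptor of parathyroid hormone, gave 2.09 (SE 0.12, adjusted p = 1.4e-06), likewise from the baseline. In the basement membrane list 2 of 15 (13.3%) were called, both lower, which is near the 9.77% of all tested probes, and 1 of them was called within slides. *Lama4* was well above background in *Sox7* (+/-) cells alone, at 83.0, 79.0 and 163% in XEN-like cells, at least 13.5-fold higher than in *Sox7* (-/-) XEN-like cells.

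Pluripotency genes were called in 5 of 22 (22.7%), 2 higher and 3 lower, beside 9.77% of all tested probes. The list median was -0.28 and ranged from -0.30 to 0.23 over the settings. Within slides 2 were higher and 2 lower, and *Sox2*, with both XEN-like groups at background, fell under 2-fold there, at -0.93 against -1.16. *Zfp42* (Rex1) was read at 4689.5, 4965 and 4679% in *Sox7* (+/-) ES cells, 261, 245 and 275% in *Sox7* (+/-) XEN-like cells, 9737, 10784 and 9970.3% in *Sox7* (-/-) ES cells and 562, 552 and 568% in *Sox7* (-/-) XEN-like cells. It was higher in *Sox7* (-/-) cells in both states, and its interaction was 0.02 (SE 0.10, adjusted p = 0.91) with a 95% interval of -0.20 to 0.23. *Pou5f1* gave 0.52 (SE 0.69, adjusted p = 0.61) with a wide interval of -1.02 to 2.06, and it was read at 3519, 1636 and 1617% in *Sox7* (-/-) ES cells. *Klf2*, a Kruppel-like factor of naive ES cells, gave -2.10 (SE 0.31, adjusted p = 8.6e-04). *Tcl1*, a cofactor of Akt, was well above background on no *Sox7* (+/-) XEN-like array but was read at 83.4, 77.4 and 56.7% in *Sox7* (-/-) XEN-like cells, and its responses differed by at least 2.83-fold.

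Heart and vessel genes were divided. Of 15 cardiac genes tested 2 were higher and 5 lower, and within slides 2 higher and 2 lower. In 9 of the 15 a group was at background, and among those well above background on all 12 arrays 0 were higher and 0 lower. *Nkx2-5*, a homeobox factor of heart progenitors, was read at 7.502, 9.74 and 10.03% in *Sox7* (+/-) ES cells, 155, 146 and 378% in *Sox7* (+/-) XEN-like cells, 11.2, 10.1 and 9.35% in *Sox7* (-/-) ES cells and 15.2, 19.3 and 17.1% in *Sox7* (-/-) XEN-like cells. It rose in *Sox7* (+/-) cells, and the interaction was -3.75 (SE 0.44, adjusted p = 2.0e-04). *Myocd*, a cofactor of serum response factor, was well above background on all *Sox7* (+/-) XEN-like arrays and on 1 of the other 9, and its interaction of -2.32 (SE 0.62, adjusted p = 0.020) did not pass within slides (adjusted p = 0.083). *Myl3*, a myosin light chain, rose in both genotypes, with 3.56 (SE 0.56, adjusted p = 0.0012). Of 13 endothelial genes tested 3 were higher and 3 lower, and among those well above background on all 12 arrays 2 were higher and 0 lower. *Flt1*, a Vegf receptor, gave 2.58 (SE 0.53, adjusted p = 0.0056), *Cdh5* (VE-cadherin) -1.71 (SE 0.21, adjusted p = 2.6e-04) and *Pecam1* -1.04 (SE 0.29, adjusted p = 0.024). *Esam*, an adhesion molecule of endothelial junctions, gave 2.01 (SE 0.14, adjusted p = 6.9e-06), and *Robo4*, a guidance receptor of vessels, was on no XEN-like array well above background and differed in ES cells by 1.44 (SE 0.12, adjusted p = 1.5e-05). *Pecam1* lost the call without any 1 of *Sox7* (+/-) ES replicate 2, *Sox7* (+/-) XEN-like replicate 3, *Sox7* (-/-) ES replicate 2 and *Sox7* (-/-) XEN-like replicates 1 and 2. *Tie1*, a defining endothelial receptor, was well above background on 1 of 12 arrays. The neural list had 2 higher and 1 lower of 11, with *Zic2*, a zinc finger factor, at 1.55 (SE 0.42, adjusted p = 0.021), which did not pass within slides (adjusted p = 0.077), *Nes* (nestin) at 1.36 (SE 0.16, adjusted p = 2.1e-04) and *Tubb3* in the other direction. The germline list had 6 higher and 2 lower of 17, with *Rhox6* and *Rhox9*, neighbouring X-linked homeobox genes, at 3.40 (SE 0.26, adjusted p = 1.2e-05) and 3.22 (SE 0.30, adjusted p = 4.9e-05), and *Ddx4*, an RNA helicase of germ cells, at 1.45 (SE 0.19, adjusted p = 4.4e-04).

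Glucocorticoid target genes bear on DEX itself, which acts also on the cells' own receptor. Of 13 tested, 3 were called, with a higher interaction. *Fkbp5*, *Tsc22d3*, *Per1* and *Sgk1*, direct targets of the receptor, gave 0.11, -0.06 (SE 0.67), 0.21 and -0.17, all under 2-fold and not called. None of them rose over 2-fold with DEX in either genotype, and *Fkbp5* fell, by -2.20 in *Sox7* (+/-) and -2.09 in *Sox7* (-/-) cells. They therefore cannot show whether the receptor answered equally in both genotypes. *Nr3c1*, which encodes the receptor, was lower in *Sox7* (-/-) cells in both states, with differences of -1.31 and -1.14 and an interaction of 0.17. The called genes were the metallothioneins *Mt1* and *Mt2*, at 1.23 (SE 0.15, adjusted p = 3.3e-04) and 1.602 (SE 0.16, adjusted p = 8.5e-05), and *Errfi1*, an inhibitor of the Egf receptor, at 1.05 (SE 0.17, adjusted p = 0.0017), which was under 2-fold without *Sox7* (+/-) XEN-like replicate 2.

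Many called probes were dim. The median level was -1.40 for those with a higher and -1.75 for those with a lower interaction, on the log2 scale relative to the 75th percentile, against 0.06 for all tested. Of the 2533 called, 1240 were well above background on all 12 arrays, and among these were 308 higher and 73 lower baseline probes and 231 higher and 130 lower end-level probes. In 1047 at least 1 group was well above background on no array. For 427 of these the interaction is at least a bound, and for 620 its size is not known. *Eps8l3*, an actin-regulating protein, was read at 36.0, 48.3 and 38.2% in *Sox7* (+/-) ES cells, 2.03, 2.58 and 4.66% in *Sox7* (+/-) XEN-like cells, 1.81, 1.999 and 4.74% in *Sox7* (-/-) ES cells and 157, 139.7 and 133% in *Sox7* (-/-) XEN-like cells, and its responses differed by at least 58.1-fold (adjusted p = 1.4e-06). *Cxcl10*, a chemokine, was read at 103, 89.2 and 111% in *Sox7* (+/-) ES cells, 13.6, 15.1 and 15.0% in *Sox7* (+/-) XEN-like cells, 4.30, 4.61 and 2.51% in *Sox7* (-/-) ES cells and 77.4, 85.5 and 68.7% in *Sox7* (-/-) XEN-like cells, and its responses differed by at least 58.4-fold. *Zscan4e*, a further copy of the Zscan4 family, differed by at least 53.6-fold. In the lower direction *Dmbx1*, a homeobox gene, was read at 16.7, 18.8 and 16.0% in *Sox7* (+/-) ES cells, 34.2, 33.0 and 70.6% in *Sox7* (+/-) XEN-like cells, 93.3, 92.3 and 81.6% in *Sox7* (-/-) ES cells and 1.89, 2.504 and 6.25% in *Sox7* (-/-) XEN-like cells and differed by at least 29.5-fold, *Runx1t1*, a corepressor, by at least 12.5-fold and *Ramp3*, a receptor partner, by at least 8.88-fold. Besides the genes given with such a change above, the origin changed within slides from same-sign to end-level in *Cd200*, *Tcl1* and *Lama4* and to baseline in *Flt1*, from end-level to crossed in *Klf2* and *Esam*, and from crossed to end-level in *Cdx2* and *Rhox9* and to baseline in *Cldn3*. The called share lay between 7.54% on chromosome 14, where *Sox7* lies, and 12.05% on chromosome 7.

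**Figure D5:**
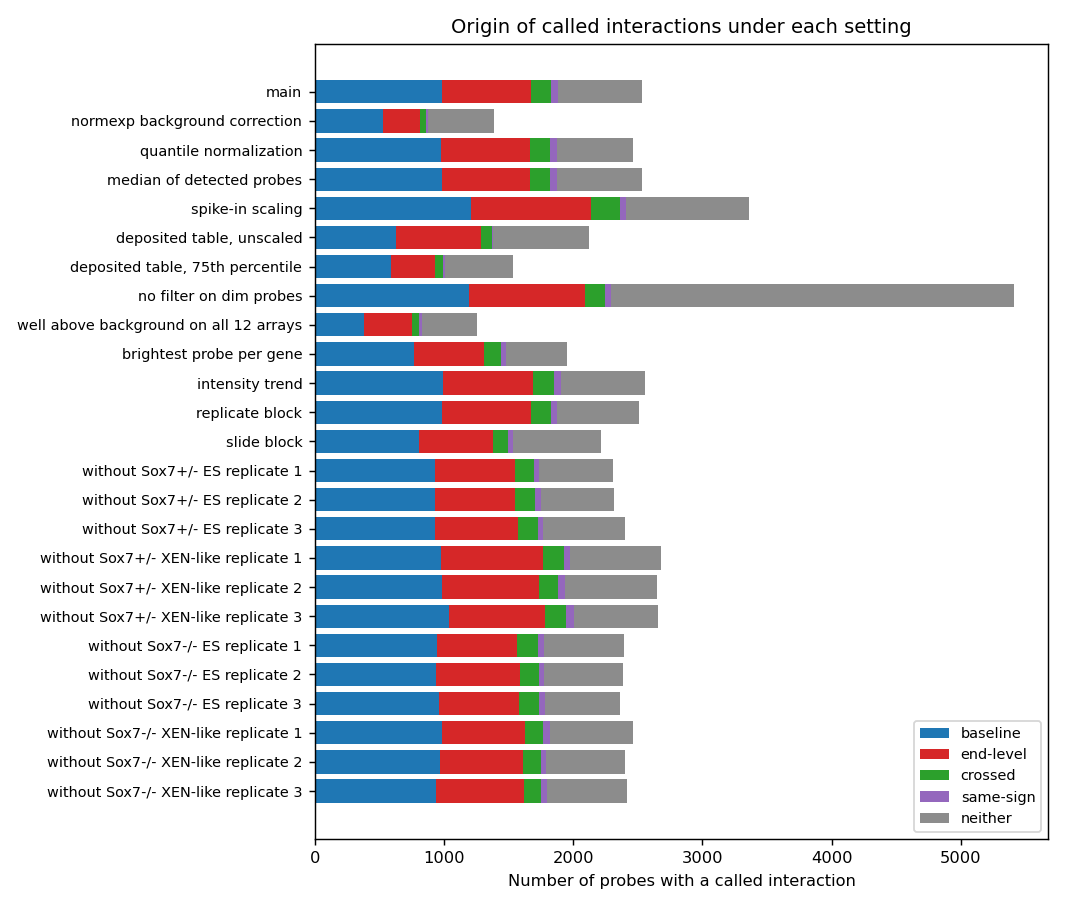
Number of probes with a called interaction, by origin, in the reported fit (main) and under 24 other settings. Baseline probes outnumbered end-level probes in every setting shown except the deposited table without scaling, where there were 631 and 654.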

How the data were processed

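The 12 samples were hybridised each to 1 one-colour Agilent mouse array. Per the file headers, the authors scanned them with Agilent Feature Extraction 10.7.3.1, which subtracts background, and the deposited intensity used here is the processed signal. Of 59305 spots besides controls, spots flagged as outliers were left out where a probe had another, spots of a probe were averaged, and 55681 probes remained. The log2 signal minus the array's 75th percentile was fitted with limma 3.58.1 in R 4.3.3 (lmFit with 1 mean per group, eBayes, residual df 8, prior df 1.97), and every p from it was adjusted over the 25922 tested probes by Benjamini-Hochberg. Intervals are 95% t intervals of the same fit. With 3 arrays in each group, their number limits how precise the values are, and r between arrays of a group lay between 0.982 and 0.996.

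A bound was set where a group was well above background on no array, with the lowest signal well above background in place of the dim one. Genes were named by a rule: per origin and direction the largest interactions among probes well above background on all 12 arrays, with responses that did not overlap, then the leading called genes of each list, the cell type markers, and the 3 largest bounds per direction. Other listed genes and the 3 promoter motifs were chosen after their values were seen. The members and gene lists were chosen with earlier results of these data known. Probe positions (mm9) are those of the array files, and promoters are from RefSeq (GRCm38.p6). The fit was tested on simulated data: of 100 probes with an interaction of 1.5, 75 were called, and of 100 with 2.5, 93, with 6 false calls. The simulated arrays had independent noise, no slide effect, no other genotype difference and no background floor. These counts therefore do not give the error rate of the calls on the real arrays. Alternatives were the background correction (normexp, offset 50), the scaling, the deposited table, whose signal follows the mean spot intensity, the filter, the probe choice, an intensity trend, the fold limit, the replicate number and the slide as blocks, and leaving out each array.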

Additional observations from a re-analysis of the deposited data

Results flagged for a closer look

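Every called interaction is a tested difference between the responses of the genotypes, and so all 1714 probes with a higher and all 819 with a lower interaction stand here. Of the genes named in the report, those listed next had both responses past the test in opposite directions. The interaction was positive, with a fall in *Sox7* (+/-) and a rise in *Sox7* (-/-) cells, for *Eps8l3* (9.59), *Cxcl10* (7.18), *Lgals2* (6.80), *Apom* (6.35), *Muc13* (5.99), *Sept4* (4.27), *Cubn* (3.67), *Amn* (3.61), *Myo7a* (3.59) and *Wnt4* (2.83). It was negative, with a rise in *Sox7* (+/-) and a fall in *Sox7* (-/-) cells, for *Dmbx1* (-6.18), *Syt10* (-4.55), *Zeb1* (-3.49) and *Stk39* (-3.03). For *Eps8l3*, *Cxcl10*, *Muc13* and *Dmbx1* at least 1 group was at background, so that the fitted value is no bound. Over all called probes, 71 fell in *Sox7* (+/-) and rose in *Sox7* (-/-) cells and 11 did the reverse. Single arrays were not examined for outliers by a formal rule, since each group held 3.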

How the results depend on the processing

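Normexp correction left 887 higher and 501 lower interactions (524 baseline, 287 end-level), the deposited table scaled to the 75th percentile 1018 and 518 (591 and 341), and the filter on all 12 arrays 836 and 422 (383 and 368). Without a minimum fold there were 3193 and 3867 (3345 and 1621), and without the filter 1885 and 3523. Scaling by spike-ins gave 3022 and 342, and the deposited table without scaling 1901 and 220 (631 baseline). Leaving out 1 array gave 1573 to 1810 higher, 705 to 884 lower, 928 to 1039 baseline and 619 to 789 end-level probes. Samples with the same replicate number did not deviate together (r from -0.051 to 0.121), and with the replicate block 1694 were higher and 814 lower, 2436 of them shared. Of the calls of the reported fit, 50.8% were shared with normexp, 56.1% with the deposited table scaled and 58.0% unscaled. The signs of 38, 17 and 2 calls, in the same order, were reversed. The shares were 81.2% with spike-ins, 90.0% with quantile normalization and 87.9% to 92.1% when 1 array was left out. The naming rule favoured large interactions and leading called genes, so the stability of named genes does not stand for all calls. Of 110 named genes 84 kept direction and call in all 24 settings where they were tested. Of 2597 fits 105 lost the call and 8 changed sign. These were the interaction of Gata6, which ranged from -0.18 to 0.261 when 1 array was left out and was -0.18 without *Sox7* (+/-) XEN-like replicate 3, and the interaction of Sox17, which was 0.0281 with normexp, 0.0948 with quantile normalization, 0.34 with spike-ins, 0.37 and 0.0379 with the deposited table unscaled and scaled, -0.139 to 0.0395 when 1 array was left out, 0.0042 without *Sox7* (+/-) ES replicate 1 and 0.0395 without *Sox7* (+/-) XEN-like replicate 1. Both were uncalled throughout. The cause of these shifts was not tested.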
